A study of Mus musculus with 2 samples.

Results

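The Hox cluster miRNA genes are the 6 microRNA genes that lie inside the 4 mammalian Hox clusters: Mir196b in HoxA, Mir196a-1 and Mir10a in HoxB, Mir196a-2 and Mir615 in HoxC, and Mir10b in HoxD. They were chosen by position alone, as rows of the deposited tables whose Ensembl identifiers map in the GENCODE mouse annotation to these genes, and they make up 6 of 1973 gene rows. No other row with an annotated position lies between the outermost Hox genes of any cluster. The annotation places a further predicted miRNA gene, Gm44463, in HoxD, and it was not analysed here. The tissue was intestine from healthy embryos of the mouse strain B6NCrl, 16.5 days old, with males and females pooled and no treatment or mutation labelled. Small RNA under 30 nucleotides was sequenced in a pair of libraries that the labels name as biological replicates of 1 group, and no conditions are contrasted. Replicate 2 pooled 41 embryos, and for replicate 1 the size of the pool is not labelled. The labels name no segment of the intestine, and a level in whole-tissue RNA cannot tell few cells with much of a miRNA from many cells with little.

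Hox genes encode transcription factors that give cells their position along the head-to-tail axis. Within a cluster they are ordered from the 3′ genes, of low paralog number and anterior expression, to the 5′ genes, of high paralog number and posterior expression. In the embryonic gut they are expressed in overlapping domains along the tube, chiefly in the mesoderm. The miRNA genes sit between them, are transcribed from the same strand, and are known to share parts of their expression domains. A miRNA represses messenger RNAs that pair with its seed, bases 2 to 8 from the 5′ end, and miR-10 and miR-196 are both known to act on Hox messenger RNAs.

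The mature sequences show which genes share a target specificity and which can be told apart by sequencing. They are given 5′ to 3′ from RefSeq on GRCm38.p6, in which all 6 genes were matched, with the seed in capitals.
miR-10a-5p: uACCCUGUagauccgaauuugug
miR-10b-5p: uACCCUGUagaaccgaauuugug
miR-196a-5p: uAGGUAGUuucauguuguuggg
miR-196b-5p: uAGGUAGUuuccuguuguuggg
miR-615-3p: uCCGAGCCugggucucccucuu
miR-615-5p: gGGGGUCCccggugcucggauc
The 6 genes therefore fall into 3 groups by seed. Mir10a and Mir10b share the seed ACCCUGU, and no other of the 1738 mature entries in the table carries it. Their products differ by a single substitution, U12A from miR-10a to miR-10b, counted from 1 at the 5′ end. The 3 miR-196 genes share the seed AGGUAGU, which is likewise found in no other miRNA. From miR-196a to miR-196b the only difference is A12C. The arms of Mir615 share their seeds with no other entry.

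Mir196a-1 and Mir196a-2 encode the same miR-196a-5p, which bears on every value given for them below. A read of that sequence fits both loci, and the deposited tables set reads with more than a single position apart from the genes. A read can then be assigned to a single locus only if it carries a base beyond the shared stretch or comes from the other arm. The hairpins differ in the base just before miR-196a-5p and in the base just after it. The 3p arms, shown because they can separate these loci, have no identical copy in another row.
miR-196a-1-3p: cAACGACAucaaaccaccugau
miR-196a-2-3p: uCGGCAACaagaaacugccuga
The other 4 genes have no identical copy of either arm in another row. The nearest other sequence to miR-10a-5p, miR-10b-5p or miR-196b-5p is the paralog's, with 1 mismatch. Whether reads with sequencing errors were exchanged between paralogs was not tested. The tables give 1 count per gene, so the 5p and 3p arms cannot be told apart.

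Together the Hox cluster miRNA genes held 6.76% of the gene counts in replicate 2 and 7.38% in replicate 1. Replicate 2 gave 5680764 counts in sense to miRNA genes from 10876035 reads, and replicate 1 gave 4261976 from 8747512 reads. Levels are CPM, counts per 1000000 of these sense totals, without correction for length, since all 5p products of the 6 genes are 22 or 23 nucleotides long. The Clopper-Pearson 95% intervals given per library cover counting error only. They hold no variation between libraries, and they take each read as independent, although PCR copies could not be told apart. Of all the reads assigned to the 6 loci in both libraries, 698890 lay on the strand of the gene and 1, at Mir10a in replicate 1, lay on the opposite strand. The labelled tissue was checked on marker lists: 9 intestinal epithelial miRNA genes summed to 9.92% ± 1.19 of the counts and Mir143 with Mir145a to 17.6% ± 0.488 (SD, n = 2). Genes known from other tissues summed to 0.0721% ± 0.0386 for the liver gene Mir122, 0.00621% ± 0.000155 for 2 skeletal muscle genes and 0.000320% ± 0.000220 for 3 pancreatic genes. The 6 neural genes with a row summed to 0.155% ± 0.0170, nearly all of it from Mir137 (mean 1542 CPM). Mir124a-2, Mir124a-3 and Mir9-2 were listed at 0 in both libraries, but the Mir124a and Mir9 genes are multi-copy genes. Reads that fit several copies are outside their counts, so the values of the Mir124a and Mir9 genes do not measure neural RNA. The source of the Mir137 counts was not tested. No Hox cluster gene was used as a marker.

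**Figure D1:**
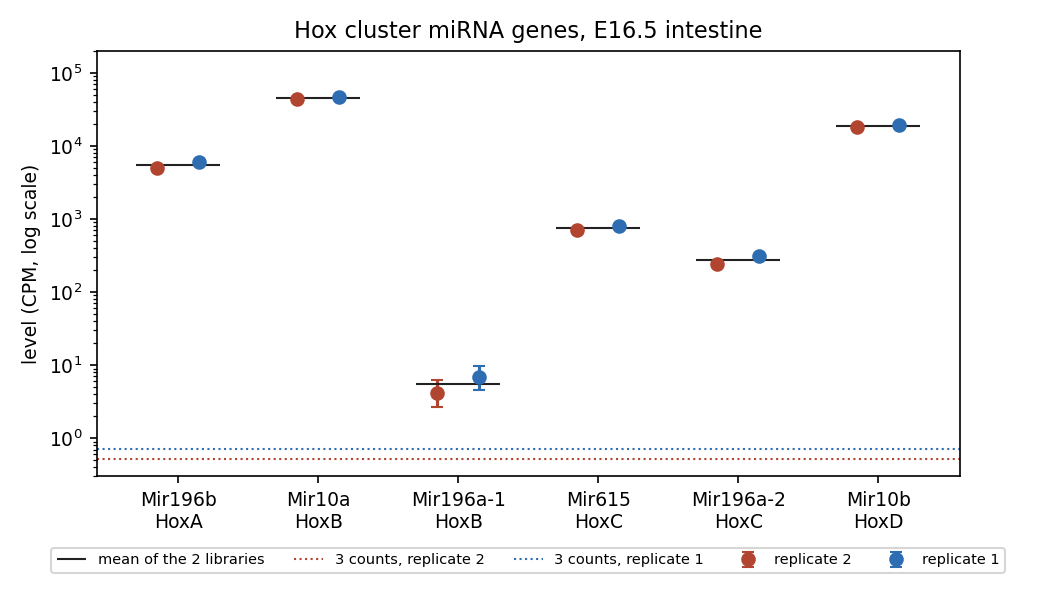
Level of each Hox cluster miRNA gene in CPM (log axis) in replicate 2 and replicate 1, with exact 95% counting intervals as error bars, the mean of the 2 libraries as a line and the limit of 3 counts per library dotted. In reads assigned to a single locus, Mir10a is highest at a mean of 45403 CPM and Mir196a-1 lowest at 5.51 CPM. The ranges over the libraries do not overlap between genes.

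The miR-10 genes were the most abundant. Mir10a, which lies between Hoxb5 and Hoxb4 (mm10, chromosome 11, 96317165 to 96317274, plus strand), had 247667 counts in replicate 2 and 201200 in replicate 1. These are 43597 CPM in replicate 2 (interval 43430 to 43766) and 47208 CPM in replicate 1 (47007 to 47410). With 45403 ± 2553 CPM (SD, n = 2) it stood at rank 4 of all genes in reads assigned to a single locus. Mir143, the most abundant in these reads, stood 3.83 ± 0.116 times above it. All ranks given here leave out reads that fit several loci, so genes with copies at other loci can stand too low. Mir10a lies 1495 bases before the coding sequence of Hoxb4 and lies in no annotated Hox transcript. Mir10b, the HoxD paralog, lies 1141 bases before the coding sequence of Hoxd4 (chromosome 2, 74726070 to 74726137, plus strand), in an intron of annotated Hoxd4 and Hoxd3 transcripts. It had 103010 counts in replicate 2 and 83478 in replicate 1, or 18133 CPM (18024 to 18243) and 19587 CPM (19455 to 19719) in the same order, and stood at rank 15. Both genes were slightly lower in CPM in replicate 2 than in replicate 1.

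The ratio of the miR-10 paralogs was nearly the same in both libraries. Mir10a had 2.40 counts for each count of Mir10b in replicate 2 (exact 95% interval 2.39 to 2.42) and 2.41 in replicate 1 (2.39 to 2.43). The mean was 2.41 ± 0.00418, and the intervals of the libraries overlapped. Among reads assigned to a single locus, the pair made up 90.9% ± 0.573 of the counts of all Hox cluster miRNA genes. In these counts Mir10a by itself outweighed the other 5 genes, which summed to 25331 ± 1834 CPM. Reads of miR-196a-5p that fit both of its loci are outside these values.

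The miR-196 genes spanned the widest range. Mir196b, in HoxA between Hoxa10 and Hoxa9 (chromosome 6, 52230081 to 52230165, minus strand), had 28160 counts in replicate 2 and 25252 in replicate 1. Its level was 4957 CPM (4899 to 5015) in replicate 2 and 5925 CPM (5852 to 5998) in replicate 1, a mean of 5441 ± 684 CPM at rank 35. The locus lies in an intron of 1 annotated Hoxa9 transcript and in an exon of 2 non-coding ones. Mir196b was thus the third of the 6 genes in reads assigned to a single locus, and its counting intervals in the libraries did not overlap.

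Mir196a-2, in HoxC between Hoxc10 and Hoxc9 (chromosome 15, 102973350 to 102973434, plus strand), had 1358 counts in replicate 2 and 1324 in replicate 1. This gave 239 CPM (227 to 252) in replicate 2 and 311 CPM (294 to 328) in replicate 1, a mean of 275 ± 50.6 CPM. The locus lies in an intron of 1 annotated Hoxc5 transcript. Mir196a-1, in HoxB between Hoxb13 and Hoxb9 (chromosome 11, 96265164 to 96265265, plus strand), had 24 counts in replicate 2 and 29 in replicate 1. Its 4.22 CPM (2.71 to 6.29) and 6.80 CPM (4.56 to 9.77) in the same order lay above the limit of 3 counts, 0.528 CPM in replicate 2 and 0.704 CPM in replicate 1. It was the lowest of the 6 genes in both libraries in reads assigned to a single locus, and its counting intervals overlapped.

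Between the miR-196 genes, Mir196b had 20.7 counts for each count of Mir196a-2 in replicate 2 (interval 19.6 to 21.9) and 19.1 in replicate 1 (18.0 to 20.2). Mir196a-2 had 56.6 counts for each count of Mir196a-1 in replicate 2 (37.9 to 88.6) and 45.7 in replicate 1 (31.6 to 68.4). Both ratios are of reads assigned to a single locus. Reads that mapped to several loci numbered 2796194 in replicate 2 and 2290968 in replicate 1, which is 99.3 and 90.7 times the counts of Mir196b. These reads are not split by sequence in the tables, so the order of miR-196a and miR-196b as mature miRNAs was not determined.

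The gap within the miR-196a pair was the largest of its kind here. Of the pairs of rows that carry an identical mature miRNA at exactly 2 rows, 22 had at least 10 counts in both genes and libraries. Their ratios of the higher to the lower gene ranged from 1.09 to 51.1, with a median of 3.14, and Mir196a-2 over Mir196a-1 was the highest, at 51.1 ± 7.73. The next was Mir181b-2 over Mir181b-1, at 46.6, with 41.6 in replicate 2 and 51.7 in replicate 1. The first and second places therefore do not separate beyond the spread of the libraries. Pairs differ in how many bases tell their loci apart, and the part this plays in the ratios was not tested.

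Mir615 lies inside Hoxc5, in an intron between its coding exons (chromosome 15, 103014910 to 103015001, plus strand). It had 3984 counts in replicate 2 and 3404 in replicate 1, or 701 CPM (680 to 723) and 799 CPM (772 to 826) in the same order, a mean of 750.0 ± 68.9 CPM at rank 106. It had 2.93 counts (2.76 to 3.12) for each count of its cluster neighbour Mir196a-2 in replicate 2 and 2.57 (2.41 to 2.74) in replicate 1, intervals that do not overlap. The counts of Mir196a-2 leave out reads of miR-196a-5p that fit both loci, so which gene is more abundant was not determined. The Mir615 hairpin has a GC content of 69.6%, against 39.7% to 48.0% for the other 5 genes and a median of 50.0% over the 347 rows with at least 10 counts in both libraries. Whether base composition plays a part in the counts of Mir615 was not tested.

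**Figure D2:**
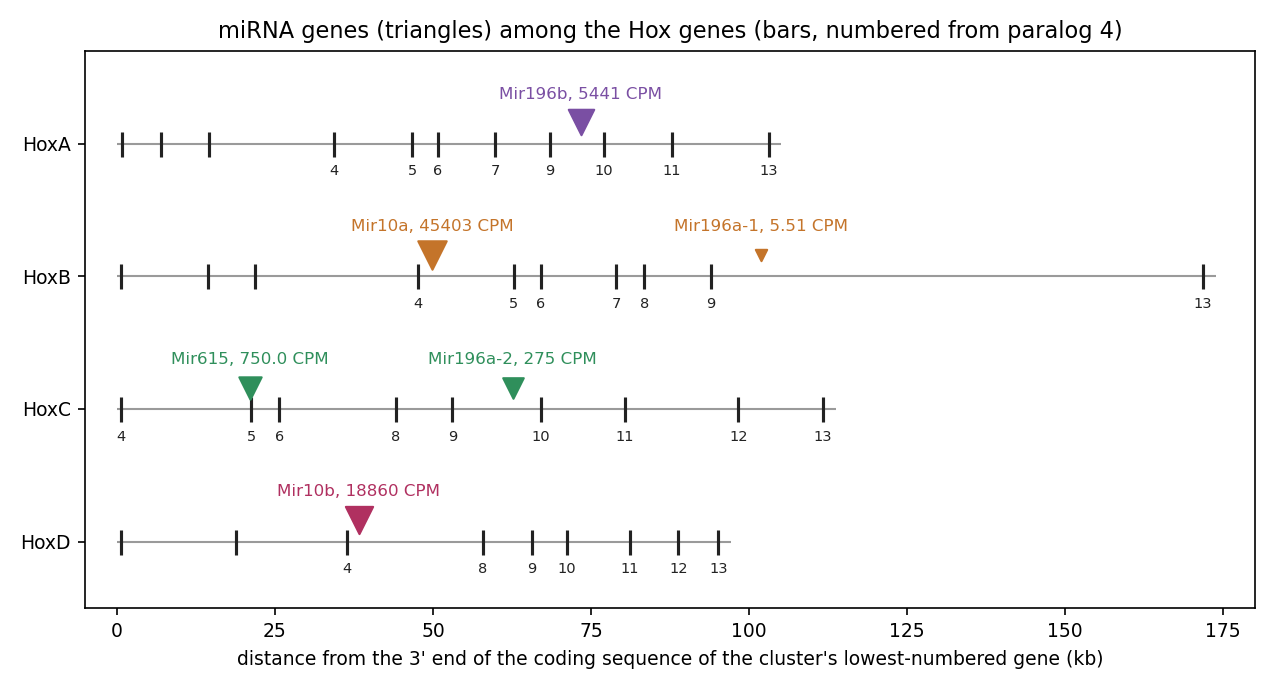
Position of the miRNA genes (triangles, larger for higher levels, with mean CPM) and Hox genes (bars, with paralog number from 4 up) along each cluster, as distance in kb from the 3′ end of the coding sequence of the lowest-numbered Hox gene. The miR-10 genes stand just 5′ of paralog 4 in HoxB and HoxD, the miR-196 genes stand 5′ of paralog 9 in HoxA, HoxB and HoxC, and Mir615 stands within Hoxc5.

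By cluster, in reads assigned to a single locus, the order of levels was HoxB (45408 ± 2555 CPM), HoxD (18860 ± 1028 CPM), HoxA (5441 ± 684 CPM) and HoxC (1025 ± 119 CPM). The ranges of these sums over the libraries did not overlap between clusters. The clusters do not hold the same miRNA genes. By position, both genes just 5′ of paralog 4 had at least 18133 CPM in each library. The 3 genes that stand between paralog 9 and the next Hox gene 5′ of it had 4.22 to 5925 CPM. In HoxB, which holds a gene of each group, Mir10a had 10319 counts for each count of Mir196a-1 in replicate 2 and 6938 in replicate 1. The values for Mir196a-1 and Mir196a-2, and with them the sums for HoxB and HoxC, leave out the reads of miR-196a-5p that fit both loci. The order of the clusters with those reads included was not determined.

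In the order of levels, from Mir10a through Mir10b, Mir196b, Mir615 and Mir196a-2 to Mir196a-1, each gene's lowest library lay above the next gene's highest. This order is of reads assigned to a single locus. The places of Mir196a-2 and Mir196a-1 leave out reads that fit both. Mir10b was 3.48 ± 0.249 times above Mir196b, and Mir196b was 7.24 ± 0.248 times above Mir615. The 6 genes all had at least 10 counts in both libraries. Of them 5 stood above the median of 154 CPM of the 347 genes that reached this count, and Mir196a-1 stood below it. That median, too, is of reads assigned to a single locus.

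**Figure D3:**
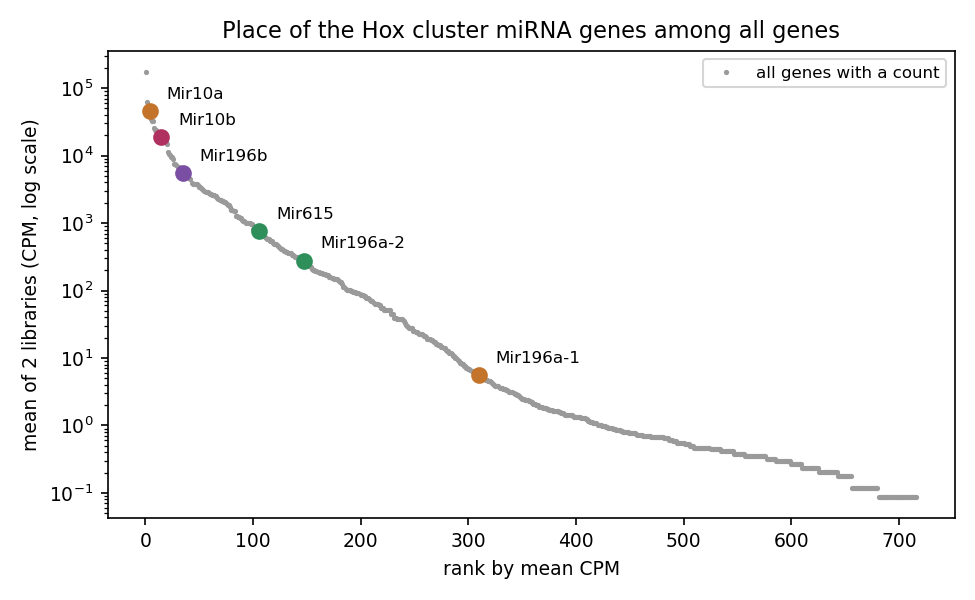
Mean CPM (log axis) of every gene with a count, in order of rank, with the Hox cluster miRNA genes marked in the colour of their cluster. Levels and ranks are of reads assigned to a single locus. The 6 genes are spread from rank 4 (Mir10a) to rank 310 (Mir196a-1).

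The genes closest to each Hox cluster gene in rank were set beside it as a measure of likeness over the 2 libraries, which says nothing of shared control. Ranks are by reads assigned to a single locus. A neighbour whose mature miRNA has a copy at another locus, such as Mir125b-2, can therefore stand too low. Mir10a stood between Mirlet7i (48328 CPM in replicate 2 and 45748 CPM in replicate 1) and Mir335, which was lower in both libraries (35783 and 34780 CPM). Its range overlapped that of Mirlet7i, so the order of these 2 was not resolved. Mir10b stood between the epithelial Mir200c (19151 ± 352 CPM) and Mir21a (17628 ± 2335 CPM), and overlapped both. Mir196b overlapped its neighbours Mir100 and Mir151 (5410 ± 258 CPM). Mir615 overlapped Mir15b (754 ± 25.2 CPM) and Mir210 (746 ± 15.8 CPM), a miRNA induced by low oxygen. Mir196a-2 overlapped Mir125b-2 (283 ± 13.6 CPM) and Mir376c (268 ± 37.8 CPM). Mir196a-1 overlapped Mir3064 (5.72 ± 2.86 CPM) and Gm23134 (5.31 ± 1.20 CPM).

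Mir99a, Mir99b and Mir100, outside the Hox clusters, encode miRNAs that resemble miR-10 in sequence. miR-100-5p shares the 11-base run GUAGAUCCGAA with miR-10a-5p, starting at base 7 in miR-10a-5p and at base 6 in miR-100-5p, but has another seed.
miR-100-5p: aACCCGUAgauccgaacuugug
The miR-10 genes summed to 61731 CPM in replicate 2 and 66795 CPM in replicate 1, against 37160 CPM and 43910 CPM for these 3 genes, a ratio of 1.66 (interval 1.65 to 1.67) and 1.52 (1.51 to 1.53). Mir10a was 1.88 ± 0.0402 times above Mir99a, the highest of the 3 at 24178 ± 1876 CPM. Mir100 (5718 ± 973 CPM) had 1.01 counts for each count of Mir196b in replicate 2 (interval 0.998 to 1.03) and 1.08 in replicate 1 (1.06 to 1.10), an interval that includes 1 in replicate 2 and lies above it in replicate 1.

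The libraries were compared at each Hox cluster gene. The difference was tested for each gene with an exact two-sided binomial test of its counts in replicate 2 against replicate 1, scaled by TMM (trimmed mean of M values) and adjusted by Benjamini-Hochberg over all 364 genes with at least 20 counts summed. The test compares 2 libraries against counting error, not conditions, and 51.9% of all genes tested passed it. Of the 6 Hox cluster genes 4 passed, a share that is read against that background and is no result about them. Of the 6 genes 0 passed with a difference of 1.5-fold or more, against 11% of all genes tested, which for 6 genes is likewise no result about them. The median log2 ratio of replicate 2 to replicate 1 was -0.09 over the 6 genes and -0.02 over all genes tested.

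The miR-10 genes passed at very small ratios. Mir10a had a log2 ratio of 0.01 (counting error 0.00433, adjusted p of the exact test 0.00186) and Mir10b one of 0.02 (0.00672, adjusted p of the exact test 0.0143). With total counts in place of TMM, which moves every log2 ratio down by 0.13, both were lower in replicate 2, at -0.11 each. Mir196b (-0.13, error 0.0125, adjusted p of the exact test 1.37e-23) and Mir196a-2 (-0.25, error 0.0557, adjusted p of the exact test 3.25e-05) were lower in replicate 2 under both scalings. Mir615 (-0.06, error 0.0337, adjusted p of the exact test 0.142) and Mir196a-1 (-0.55, error 0.394, adjusted p of the exact test 0.248) did not pass. Under total counts 5 of the 6 genes passed, Mir615 (-0.19) among them and Mir196a-1 not, all 5 lower in replicate 2. The background under this scaling was 57.7% of all genes tested in either direction and 45.1% lower in replicate 2.

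**Figure D4:**
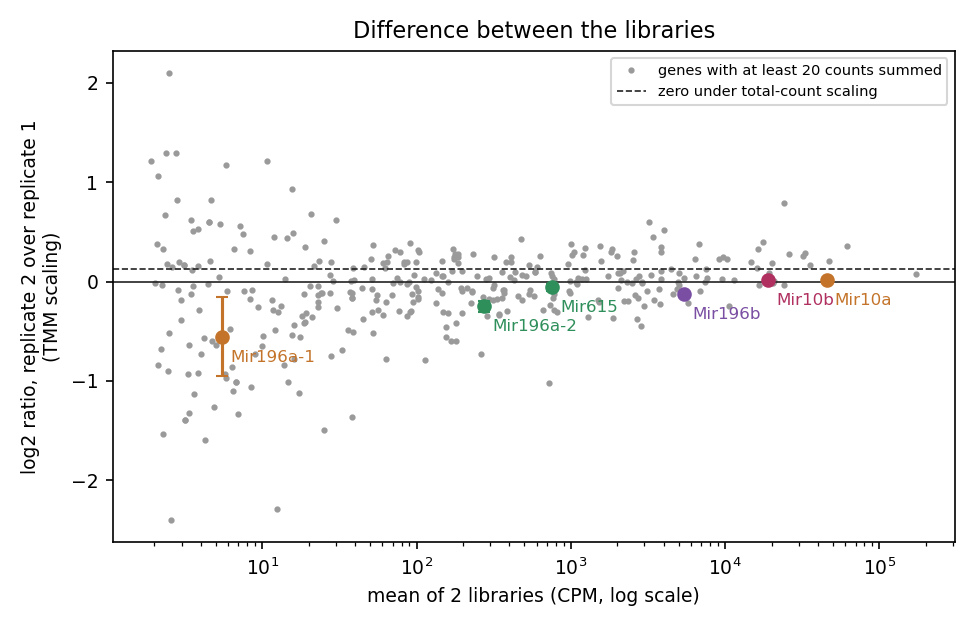
Log2 ratio of replicate 2 to replicate 1 after TMM scaling against mean CPM (log axis), for 364 genes (grey) and the Hox cluster miRNA genes (coloured, error bars 1 counting error). The dashed line is where a ratio of 0 under total counts would lie, 0.13 higher, and the Hox cluster genes lie inside the cloud of all genes.

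Hox genes are themselves known targets of these miRNAs, so the letters that pair with each seed were counted in the 3′ untranslated regions (UTRs) of the 39 mouse Hox genes, using the longest annotated 3′ UTR of each gene and the sense strand only. This describes sequence and measures no repression, since no messenger RNA was measured. For miR-196 the letters ACTACCT were found in 9 Hox genes of 39 (23.1%), against 6.12% of 20981 coding genes and 3.72% of the 2954 genes whose 3′ UTR lies within a factor of 0.8 of the Hox median of 966 bases in either direction. Among them, Hoxa7 held 4 matches and Hoxc8 held 2, of 13 matches in all. The same letters also pair with bases 3 to 9 of let-7a-5p, so a match cannot be assigned to miR-196 alone. All 9 genes have paralog numbers of 9 or below, as have 27 of the 39, and none of the 12 genes of paralog number 10 or above held a match.

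The longest pairing with miR-196a-5p was in Hoxb8, a gene known to be cut by miR-196 in mouse embryos. It did not count as a seed match, because a G:U pair stands at base 5 of the miRNA. The site is shown because it is the closest match found (mm10, plus strand, chr11:96284888-96284909, bases that pair in the Watson-Crick way in capitals).
Hoxb8 site: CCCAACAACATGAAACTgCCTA
It pairs at 21 of 22 bases with miR-196a-5p and at 20 with miR-196b-5p, which also differs at base 12. Of 20899 genes with a 3′ UTR long enough, Hoxb8 was the only one with 18 or more paired bases in an ungapped window. The next highest value was 17, in 15 others. For comparison, the best of the 4 seed matches in Hoxa7 (mm10, minus strand, chr6:52215210-52215231) pairs at 14 bases.
Hoxa7 site: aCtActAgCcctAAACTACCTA

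For miR-10, the letters ACAGGGT were found in 4 Hox genes, among them Hoxb3 and Hoxd1. This was 10.3% of the Hox genes, against 12.5% of all coding genes and 10.6% of those of similar length. All 4 have paralog numbers of 3 or below, a range that holds 8 of the 39 genes. For miR-615-3p the letters GGCTCGG were found in Hoxb4 alone, 2.56% of the Hox genes against 2.31% of all genes. For miR-615-5p the letters GGACCCC were found in Hoxa11, Hoxb13, Hoxc6 and Hoxc11, 10.3% against 6.59%. None of these counts was tested.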

How the data were processed

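For each library the authors deposited unnormalized counts of reads at miRNA genes, made on mm10 with GENCODE M4, per the readmes. Which aligner and counter were used is not given in the sources used here. Count columns (unstranded, sense and antisense) were told apart by their values. Rows that name no gene were set aside: in replicates 2 and 1 these held 17.2% and 19.5% of reads as unmapped, 25.7% and 26.2% as mapped to several loci, and 2.88% and 3.69% outside annotated miRNA genes. The last share is of the unstranded column.

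GENCODE M21, which shares the assembly and holds 1894 of the 1973 identifiers, gave symbols, coordinates and 3′ UTRs, and RefSeq gave mature sequences. The sense column gave CPM. edgeR's quasi-likelihood test was not used, since 1 library on each side leaves no residual degrees of freedom. The exact binomial test, at an adjusted p of 0.05 and with a prior of 0.5 counts for log2 ratios, used TMM from edgeR 4.0.16. It was tried on simulated counts with counting error only and with known, equal library sizes. That trial did not cover variation between replicates. DESeq2 1.42.0 gave alternative size factors. Other tools were Python 3.11.15, scipy 1.17.1, pandas 2.3.3 and R 4.3.3.

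All 6 genes were named throughout. Other genes were named by rule: the neighbours in rank, the miR-99 and miR-100 genes, Mir143 and the tissue markers. Mir181b-1, Mir181b-2 and the Hox genes with matches were named after their values were seen, and not all of the matches are reported here. The genes, lists and tests were chosen with earlier results of these data known.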

Additional observations from a re-analysis of the deposited data

How the results depend on the processing

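Levels depend on what is counted in the total, while ratios between genes do not. Without Mir143 in the total, Mir10a stood at 54963 CPM, Mir10b at 22831 CPM, Mir196b at 6588 CPM, Mir615 at 908 CPM and Mir196a-2 at 333 CPM, and the share of the 6 genes was 8.56%. With all reads of the library in the total, Mir10a stood at 22886, Mir10b at 9507, Mir196b at 2738, Mir615 at 378, Mir196a-2 at 138 and Mir196a-1 at 2.76 CPM, and the share was 3.57%. Each of these totals is larger or smaller by construction. Each replicate left out in turn gave 43597 to 47208 CPM for Mir10a, 18133 to 19587 CPM for Mir10b, 4957 to 5925 CPM for Mir196b, 701 to 799 CPM for Mir615, 239 to 311 CPM for Mir196a-2 and 4.22 to 6.80 CPM for Mir196a-1, and 6.76% to 7.38% for the share.

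Of all 364 genes tested, 189 (51.9%) passed the exact binomial test and 40 (11%) also reached 1.5-fold. With the unstranded column 187 of 373 genes passed. Of the 6 Hox cluster genes 4 passed, 2 with the unstranded column and 0 with a minimum of 1.5-fold. Against these backgrounds the counts are no result about the 6 genes. The 2 that no longer passed in the unstranded column were Mir10a (log2 ratio 0.003) and Mir10b (0.006). At the 6 genes that column holds only 1 read more than the sense column, and the rest of the change lies in the TMM scaling. With total counts Mir10a (-0.11) and Mir10b (-0.11) changed direction and Mir615 (-0.19) passed. With at least 100 counts summed Mir196a-1 gave no value. The other 82 of 103 values kept their direction and side of the threshold, or stayed within the spread of the replicates or within 1.5 times the count. Depth limits Mir196a-1, whose log2 ratio of -0.55 on 24 and 29 counts did not pass. Only 2 libraries were made, so the SD is itself imprecise.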
